A study of Homo sapiens with 12 samples.

Results

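The genes described here are 10 genes of cellular iron uptake, storage, export and sensing: TFRC, STEAP3, SLC11A2, SLC39A14, FTH1, FTL, NCOA4, SLC40A1, ACO1 and IREB2. They were taken by gene symbol from a table of 58735 genes, and all 10 were found. They were chosen from earlier results on these same libraries, in which TFRC was lower after CDCA7 was raised in 1 line and after it was lowered in the other. Values of the 10 genes in those 2 comparisons are therefore given as a description without a p-value. Counts of calls among them are not read as a test.

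RNA was sequenced from KYSE180 and KYSE150, established human cell lines of oesophageal squamous cell carcinoma, in 4 groups of 3 libraries. KYSE180 cells with the genotype CDCA7 overexpression were set against KYSE180 native control cells labelled WT, and KYSE150 cells with the genotype shCDCA7, a short hairpin RNA against CDCA7, against KYSE150 native control cells labelled WT. CDCA7 is a zinc finger protein that recruits the remodeller HELLS to chromatin. The labels name neither an empty-vector nor a scrambled-hairpin control, and do not say whether the modified cells are clones or pools or whether replicates were separate cultures, so p-values measure the spread between these libraries, which may be technical.

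Cells take up iron mainly as transferrin bound to the transferrin receptor, which is carried into endosomes, where the iron is reduced and pumped into the cytosol. Iron not used at once is stored in ferritin, a shell of heavy and light chains, and is released when ferritin is delivered to lysosomes, or leaves the cell through ferroportin. The 2 iron regulatory proteins sense cytosolic iron: when it is scarce they bind stem-loops called iron-responsive elements, which blocks translation of messages with an element in the 5′ untranslated region and stabilises the TFRC message, which carries several in its 3′ untranslated region. Proliferating tumour cells are known for high transferrin receptor levels.

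A search for the classical shape of such an element found it in 4 of the genes, leaving SLC39A14 aside. The shape was a C, then 5 bases that pair with the 5 bases after a loop of 6 bases, with the loop CAGTGN, read on the transcript strand of GENCODE 29 transcripts on GRCh38. It was present in the transcripts of 280 of 19659 protein-coding genes (1.42%), in a 5′ untranslated region of 31 of them (0.158% of all) and in a 3′ untranslated region of 129 (0.656%). The matches are shown because they fall in 2 classes. FTH1, FTL and SLC40A1 had 1 match each in the 5′ untranslated region, and TFRC had 4 in the 3′ untranslated region. These are counts of matches to this shape, and elements of another shape would be missed. Capitals mark the loop.
FTH1, 5′ untranslated region, chr11:61967573-61967602, minus strand: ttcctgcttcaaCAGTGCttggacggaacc
FTL, 5′ untranslated region, chr19:48965335-48965364, plus strand: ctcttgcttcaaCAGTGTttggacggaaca
SLC40A1, 5′ untranslated region, chr2:189580660-189580689, minus strand: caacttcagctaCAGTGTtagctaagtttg
TFRC, 3′ untranslated region, chr3:196050978-196051007, minus strand: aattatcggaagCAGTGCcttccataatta
TFRC, 3′ untranslated region, chr3:196050574-196050603, minus strand: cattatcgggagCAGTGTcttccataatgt
TFRC, 3′ untranslated region, chr3:196050509-196050538, minus strand: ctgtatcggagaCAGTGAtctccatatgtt
TFRC, 3′ untranslated region, chr3:196050462-196050491, minus strand: aattatcgggaaCAGTGTttcccataattt
Apart from SLC39A14, of which the search says nothing, the other genes held no match to this shape. That says only that these letters and pairings are not in their transcripts. In windows of 250 bases before to 50 bases after the start, 8 of the 10 genes were in the RefSeq promoter table. The E-box CACGTG was in none of the 8 against 7.44% of 27305 promoters, the hypoxia core ACGTG in 2 (FTL and TFRC) against 21.6%, the hypoxia core GCGTG in 4 (ACO1, FTL, IREB2 and SLC11A2) against 36.3%, and the antioxidant core TGACNNNGC in none against 13.6%. All were searched on both strands, and ACGTG lies within the E-box. CAGTGN, searched on the forward strand, was in 2 (FTL and TFRC) against 31.7% of promoters.

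Across the whole series, each library held between 16.3 M and 19.6 M reads. The deposited values are called FPKM here (fragments per kilobase per M fragments), but their scale did not follow the total reads of each library. For a gene of 1 kilobase, 1 read gave 0.0731 in shCDCA7 replicate 2 (17.03 M reads) and 0.0632 in replicate 1 (16.36 M reads). It gave 0.0569 in shCDCA7 replicate 3 (18.17 M reads) and 0.0514 in KYSE150 control replicate 2 (17.89 M reads). CDCA7 was at 44.6, 59.1 and 57.9 FPKM in overexpressing KYSE180 cells, against 24.0, 18.2 and 17.4 FPKM in KYSE180 controls. It rose by 1.40 on the log2(FPKM + 1) scale (SE 0.17, limma adjusted p = 0.00947), a call lost without overexpression replicate 1 (adjusted p = 0.0586) or replicate 3 (adjusted p = 0.0634), or with no filter on low values (adjusted p = 0.0663). In KYSE150 it was at 9.24, 10.1 and 8.83 FPKM with shCDCA7, against 27.4, 25.6 and 25.6 FPKM in controls, and fell by 1.39 (SE 0.09, limma adjusted p = 0.00166). Library shCDCA7 replicate 2 stood apart: it correlated with its sister libraries at 0.973 and 0.974 across genes, against 0.993 between those, and its mitochondrial genes took 11.2% of reads, against 5.20% and 5.73%. In KYSE180 the mitochondrial share was 7.97 to 8.65% with overexpression and 4.76 to 6.38% in controls. All 8 squamous epithelial markers were above 1 FPKM, with sums of 3798 to 4466 FPKM in overexpressing cells, 1747 to 3664 FPKM in KYSE180 controls, 892 to 966 FPKM in shCDCA7 cells and 686 to 720 FPKM in KYSE150 controls. Of other iron-handling cell types, 1 of 8 erythroid markers (EPOR), 0 of 6 hepatocyte and 0 of 6 macrophage markers passed 1 FPKM in any library, nor did 5 of 6 fibroblast markers, the exception being COL1A1. Erythroid sums were 6.67 to 9.23 FPKM with overexpression, 3.92 to 4.40 FPKM in KYSE180 controls, 1.32 to 1.53 FPKM with shCDCA7 and 1.97 to 2.07 FPKM in KYSE150 controls. TTR and C1QA were at 0 throughout. The part of these differences in the results was not tested. When libraries were scaled to total reads, the median change of all genes shifted to -0.08 in KYSE180 and to -0.16 in KYSE150, and the calls split into 504 higher and 1228 lower in KYSE180 and 776 higher and 3016 lower in KYSE150, against 741 and 706, and 1440 and 1414, on the deposited scale. The deposited scale thus set the manipulated libraries higher against their controls than total-read scaling did, in both lines.

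**Figure D1:**
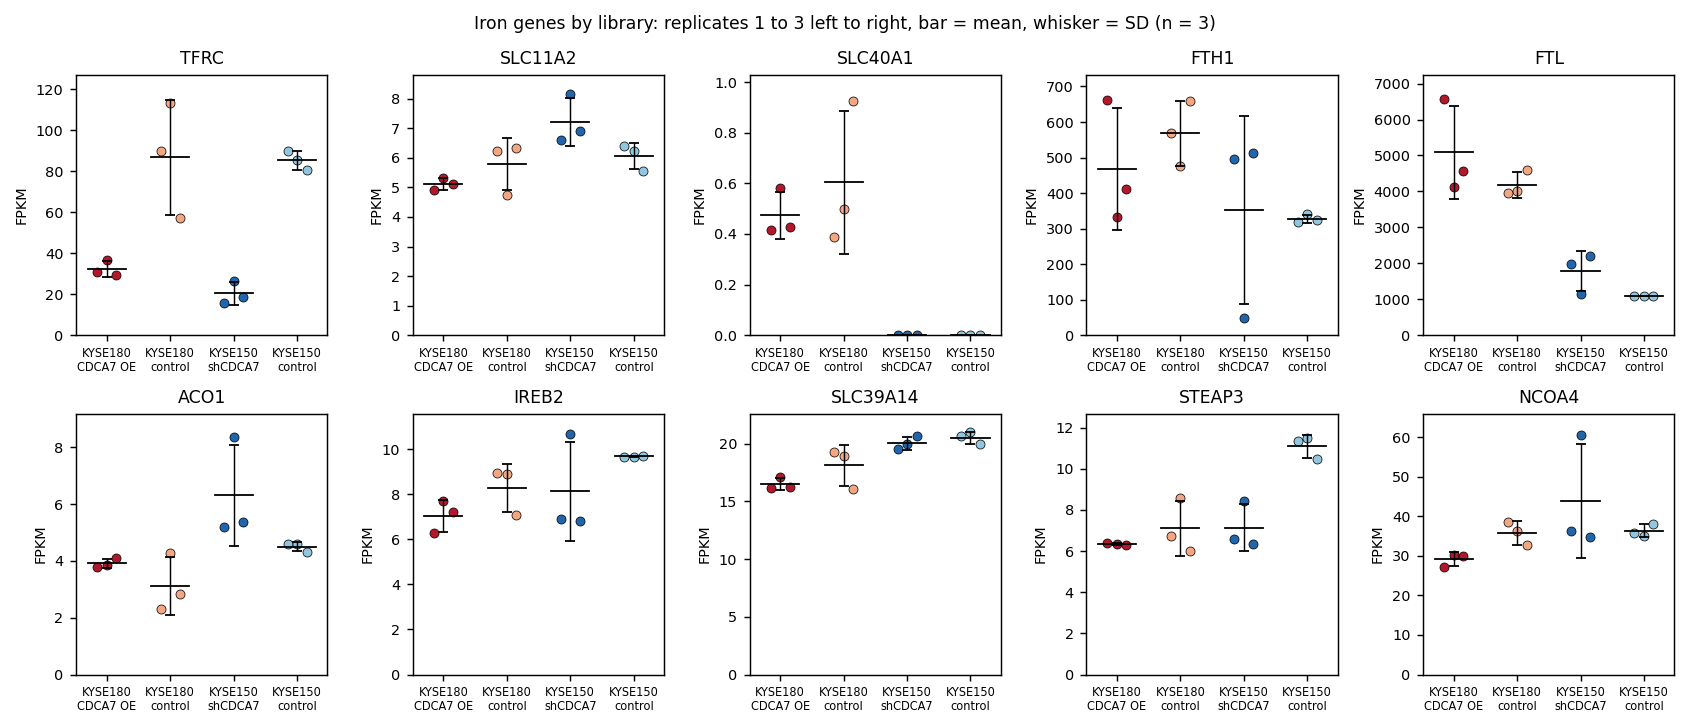
Expression in FPKM (linear axis from 0) of the 10 iron genes in each of the 12 libraries, with replicates 1 to 3 left to right, the mean as a bar and the SD as a whisker (n = 3). TFRC lies lower in both manipulated groups, and FTH1 of shCDCA7 replicate 2 is at 47.5 FPKM, against 497 and 512 FPKM in its sister libraries.

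TFRC, the transferrin receptor through which most cells import iron (ENSG00000072274, chromosome 3, 196027183 to 196082189 on GRCh38, minus strand), was lower in both manipulated lines. It was at 30.7, 36.5 and 29.6 FPKM in KYSE180 cells with CDCA7 overexpression, against 89.9, 113 and 57.2 FPKM in KYSE180 controls. In KYSE150 it was at 15.9, 26.4 and 18.8 FPKM with shCDCA7, against 90.0, 85.4 and 80.4 FPKM in controls. In both lines every manipulated library lay under the lowest control library, and in KYSE180 control replicate 3 was the nearest to the overexpressing cells. The group mean was 32.3 ± 3.72 FPKM in overexpressing cells and 86.8 ± 28.2 FPKM in KYSE180 controls (SD, n = 3 each), a ratio of 0.372. It was 20.4 ± 5.44 FPKM in shCDCA7 cells and 85.3 ± 4.80 FPKM in KYSE150 controls (SD, n = 3 each), a ratio of 0.239. The log2(FPKM + 1) difference was -1.35 (SE 0.24) in KYSE180 and -2.04 (SE 0.18) in KYSE150. TFRC had the largest log2 difference of the members in each line, and these are bulk samples, in which fewer cells of a kind and less RNA per cell cannot be told apart.

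With 1 library left out at a time, the TFRC difference in KYSE180 ran from -1.62 to -1.13. In KYSE150 it ran from -2.30 to -1.89 over 13 alternatives, and was -2.24 without shCDCA7 replicate 2. The KYSE180 difference minus the KYSE150 difference was 0.69 (SE 0.33).

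STEAP3, the endosomal reductase that turns ferric into ferrous iron after receptor uptake, had its larger difference in KYSE150. It was at 6.60, 8.44 and 6.36 FPKM with shCDCA7, against 11.4, 11.5 and 10.5 FPKM in controls, with no overlap (-0.58, SE 0.13). In KYSE180 it was at 6.40, 6.35 and 6.31 FPKM with overexpression, against 6.72, 8.60 and 6.004 FPKM in controls, and the groups overlapped (-0.13, SE 0.14). Without shCDCA7 replicate 2 the KYSE150 difference was -0.69. The KYSE180 difference minus the KYSE150 difference was 0.45 (SE 0.19).

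SLC11A2, the divalent metal transporter that pumps endosomal iron into the cytosol, was at 4.89, 5.32 and 5.11 FPKM in overexpressing cells, against 6.24, 4.76 and 6.34 FPKM in KYSE180 controls. With shCDCA7 it was at 6.60, 8.15 and 6.92 FPKM, against 6.39, 6.24 and 5.57 FPKM in KYSE150 controls. The KYSE180 groups overlapped (-0.14, SE 0.14), and the KYSE150 groups did not (0.22, SE 0.12). Scaled to total reads the KYSE150 difference was -0.01, or 0.15 relative to the median gene. SLC39A14, a zinc and iron importer of the cell surface, lay between 16.1 and 21.0 FPKM in all 12 libraries. Its log2 differences were -0.12 (SE 0.12) in KYSE180 and -0.03 (SE 0.08) in KYSE150, with overlapping groups in both.

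**Figure D2:**
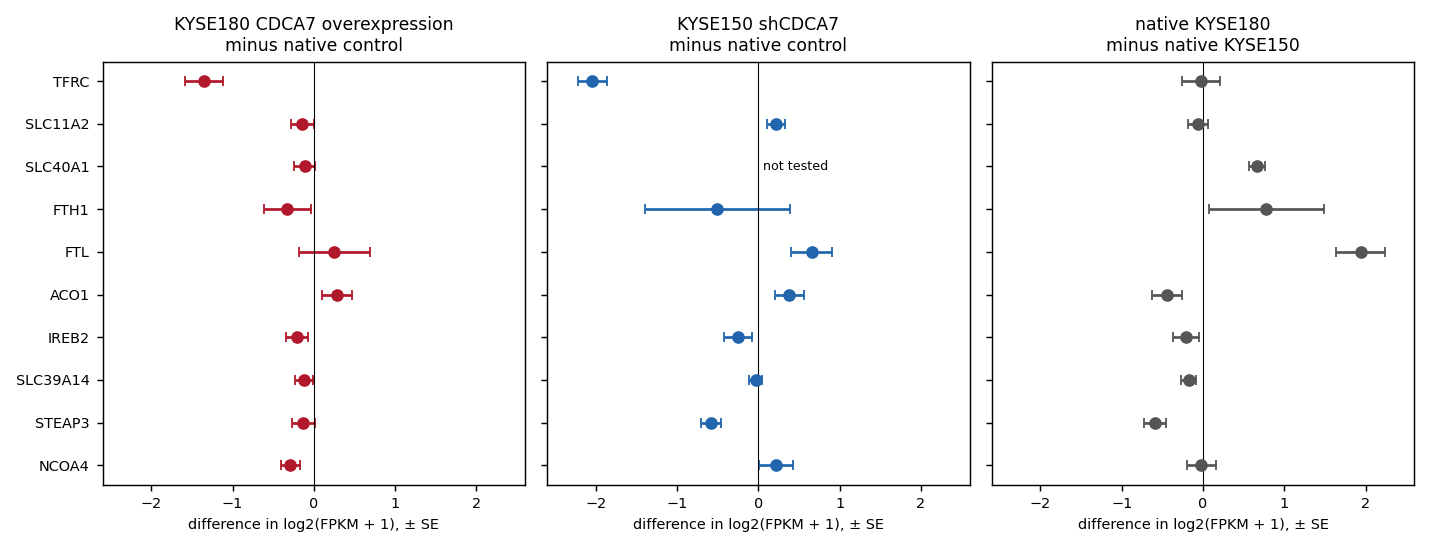
Difference in log2(FPKM + 1) with its SE for each of the 10 iron genes, in KYSE180 (overexpression minus native control), KYSE150 (shCDCA7 minus native control) and between the native lines (KYSE180 minus KYSE150). TFRC is at -1.35, -2.04 and -0.03, and SLC40A1 was not tested in KYSE150, where every library was at 0.

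Ferritin messages were the most abundant of the members and showed no single pattern over the 2 lines. FTL, the light chain (ENSG00000087086), was at 6566, 4125 and 4564 FPKM with overexpression, against 3945, 4012 and 4604 FPKM in KYSE180 controls. In KYSE150 it was at 1994, 1161 and 2196 FPKM with shCDCA7, against 1081, 1086 and 1101 FPKM in controls. The KYSE180 groups overlapped (0.25, SE 0.44), whereas all 3 shCDCA7 libraries lay above the controls, replicate 2 by the least (0.66, SE 0.25). Without shCDCA7 replicate 2 the FTL difference was 0.94.

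FTH1, the heavy chain whose ferroxidase activity loads iron into the shell (ENSG00000167996), was at 661, 332 and 411 FPKM with overexpression, against 568, 477 and 660 FPKM in KYSE180 controls. In KYSE150 it was at 497, 47.5 and 512 FPKM with shCDCA7, against 319, 341 and 324 FPKM in controls. shCDCA7 replicates 1 and 3 were above the 3 controls and replicate 2 was far under them, so the sign of the difference rested on that library: -0.51 (SE 0.89) with it and 0.62 without it. FTH1 in replicate 2 was 0.0942 of the mean of replicates 1 and 3. That was the lowest such ratio among the 379 protein-coding genes with a mean of at least 100 FPKM in those 2 libraries, a comparison chosen after the values were seen.

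The low value is not matched by the FTH1 pseudogene copies, whose reads may be shared with the parent gene. The 25 pseudogene rows named FTH1P, 17 of them above 0, held 245 reads in shCDCA7 replicate 2, against 285 and 230 reads in replicates 1 and 3. FTH1 itself had 1320 reads in replicate 2, against 15945 and 18274 reads in replicates 1 and 3. The copies therefore took 15.65% of the family's reads in replicate 2, and 1.24 to 1.85% in the other 11 libraries. The 16 FTL pseudogene rows took 0.0389 to 0.141% of their family's reads in all 12 libraries, so the split between parent and copies is a small part of the FTL values. Whether the low FTH1 value comes from the cells, the library or the counting was not tested.

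The ratio of receptor to ferritin messages within a library needs no scaling between libraries. The log2 ratio of TFRC to FTH1 was -4.43, -3.19 and -3.80 with overexpression, against -2.66, -2.07 and -3.53 in KYSE180 controls. It was -4.97, -0.85 and -4.77 with shCDCA7, against -1.83, -1.996 and -2.01 in KYSE150 controls. The KYSE180 groups overlapped, and in KYSE150 replicates 1 and 3 lay under all controls while replicate 2 lay above them. Group means were -3.80 ± 0.622 with overexpression and -2.75 ± 0.732 in KYSE180 controls, and -3.53 ± 2.32 with shCDCA7 and -1.94 ± 0.102 in KYSE150 controls (SD, n = 3 each). The log2 ratio of TFRC to FTL did not overlap in either line. It was -7.74, -6.82 and -7.27 with overexpression, against -5.46, -5.15 and -6.33 in KYSE180 controls. In shCDCA7 cells it was -6.97, -5.46 and -6.87, against -3.59, -3.67 and -3.77 in KYSE150 controls.

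**Figure D3:**
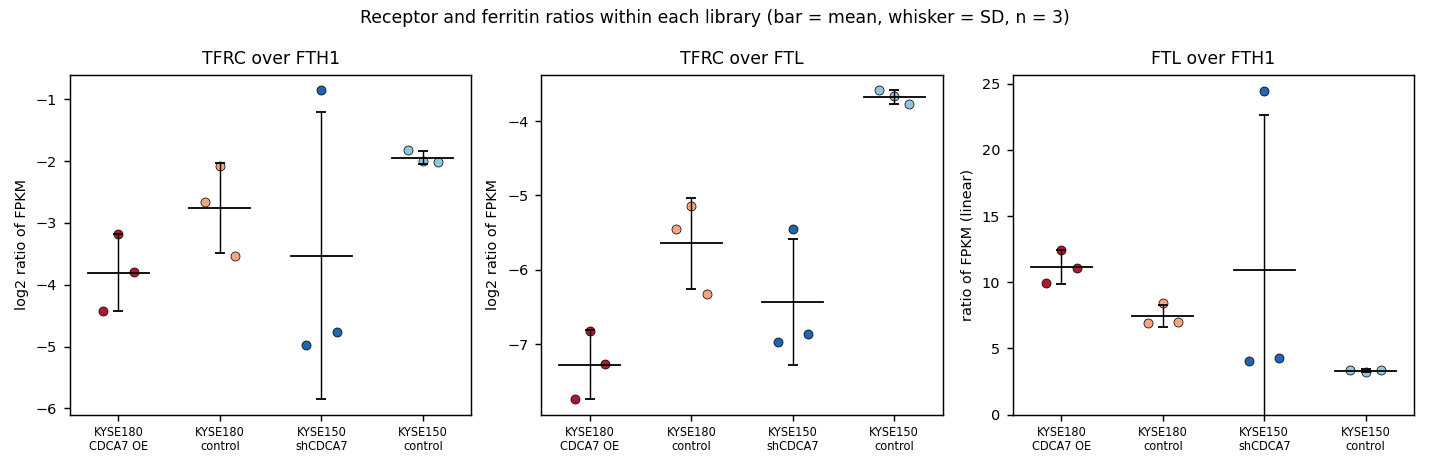
Ratios of FPKM within each library: TFRC over FTH1 and TFRC over FTL on a log2 scale, and FTL over FTH1 on a linear scale from 0, with the mean as a bar and the SD as a whisker (n = 3). In shCDCA7 replicate 2 FTL over FTH1 is 24.4, against 4.01 and 4.29 in its sister libraries.

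The balance of light to heavy chain also differed between groups. FTL over FTH1 was 9.93, 12.4 and 11.1 with overexpression, against 6.95, 8.41 and 6.98 in KYSE180 controls. It was 4.01, 24.4 and 4.29 with shCDCA7, against 3.39, 3.19 and 3.40 in KYSE150 controls. In both lines the manipulated libraries were all above the controls, and in KYSE150 replicate 2 exceeded every other library of the series.

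NCOA4, the receptor that delivers ferritin to lysosomes for iron release, was at 27.1, 30.3 and 29.9 FPKM with overexpression, against 38.6, 36.2 and 32.7 FPKM in KYSE180 controls. With shCDCA7 it was at 36.2, 60.5 and 34.7 FPKM, against 35.8, 35.0 and 38.2 FPKM in KYSE150 controls. The KYSE180 groups did not overlap (-0.29, SE 0.12). In KYSE150 the difference of 0.22 (SE 0.21) rested on replicate 2, and was -0.03 without it. It was -0.04 with total-read scaling, or 0.12 relative to the median gene. The KYSE180 difference minus the KYSE150 difference was -0.51 (SE 0.25).

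SLC40A1, ferroportin, the exporter of ferrous iron, was the least abundant member. It was at 0.414, 0.580 and 0.426 FPKM with overexpression (29, 45 and 34 reads), against 0.390, 0.497 and 0.925 FPKM in KYSE180 controls (29, 40 and 79 reads). The groups overlapped (-0.11, SE 0.13), and the difference was 0.03 without control replicate 3. In all 6 KYSE150 libraries it had 0 reads, which at 3 reads per library allows up to 0.0324 to 0.0506 FPKM, counting error only. It was therefore not tested in KYSE150.

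The 2 iron regulatory proteins are encoded by ACO1, which is an aconitase when it holds an iron-sulfur cluster, and IREB2, which is degraded when iron is plentiful. ACO1 was at 3.79, 3.87 and 4.09 FPKM with overexpression, against 2.30, 4.27 and 2.82 FPKM in KYSE180 controls. In shCDCA7 cells it was at 5.20, 8.35 and 5.37 FPKM, against 4.597, 4.603 and 4.32 FPKM in KYSE150 controls. The KYSE180 groups overlapped because control replicate 2 was above the overexpressing cells (0.28, SE 0.18), and the KYSE150 groups did not (0.38, SE 0.18). Without shCDCA7 replicate 2 the KYSE150 difference of ACO1 was 0.19.

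IREB2 was at 6.27, 7.68 and 7.19 FPKM with overexpression, against 8.93, 8.89 and 7.06 FPKM in KYSE180 controls. With shCDCA7 it was at 6.89, 10.7 and 6.81 FPKM, against 9.66, 9.66 and 9.70 FPKM in KYSE150 controls. Both pairs of groups overlapped (-0.21, SE 0.14 in KYSE180 and -0.25, SE 0.17 in KYSE150), in KYSE150 through shCDCA7 replicate 2. Without that library the KYSE150 difference was -0.44. The ratio of IREB2 to ACO1 separated the groups in both lines, in KYSE180 by a small gap (1.98 against 2.08). It was 1.65, 1.98 and 1.76 with overexpression, against 3.89, 2.08 and 2.51 in KYSE180 controls, and 1.33, 1.28 and 1.27 with shCDCA7, against 2.10, 2.10 and 2.25 in KYSE150 controls. Neither pair of groups overlapped, and shCDCA7 replicate 2 was close to its sister libraries in this ratio.

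Counted together, 0 of 10 members were called higher and 1 lower (TFRC) in KYSE180, where 4.65% of the 15944 genes tested were called higher and 4.43% lower. The groups did not overlap for 2 members there, against 35.1% of all genes. In KYSE150, 0 of the 9 members tested were called higher and 2 lower (TFRC and STEAP3), where 10.0% of 14342 genes were called higher and 9.86% lower. The groups did not overlap for 5 members, against 47.8% of all genes. The median log2 difference was -0.14 over the 10 members in KYSE180, against 0.00 over all genes, and -0.03 over the 9 members in KYSE150, against 0.00. Over 13 alternatives TFRC was called in 8 in KYSE180 and in 13 in KYSE150, and STEAP3 in 6 in KYSE150. The members were chosen on these comparisons, so nothing is read from the counts. How often the calls of TFRC and STEAP3 held is no support for them either. In the KYSE180 difference minus the KYSE150 difference, 0 of the 9 members with reads in both lines were called, where 2.87% of 17088 genes were called higher and 2.7% lower; nothing is read from that count either.

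The native lines share no manipulation, and the question there is how far the starting levels of the members differ between KYSE180 and KYSE150. FTL was higher in native KYSE180, by 1.94 on the log2 scale (SE 0.30, limma adjusted p = 0.000187), at 4187 ± 362 FPKM in KYSE180 and 1089 ± 10.3 FPKM in KYSE150 (SD, n = 3 each), a ratio of 3.84. SLC40A1 was at 0.604 ± 0.283 FPKM in KYSE180 (SD, n = 3) and at 0 reads in KYSE150, so it passed the filter on low values through KYSE180 alone and its p is not given. Against 3 reads per library its KYSE180 mean was at least 17.0-fold higher. STEAP3 was lower in KYSE180, at 7.11 ± 1.34 FPKM in KYSE180 and 11.1 ± 0.555 FPKM in KYSE150 (SD, n = 3 each), a difference of -0.59 (SE 0.13, limma adjusted p = 0.00280). The calls of FTL and STEAP3 held in 13 of 13 alternatives, with limma adjusted p up to 0.00274 for FTL and 0.0136 for STEAP3.

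For FTH1 and ACO1 the call between the native lines depended on the fit. FTH1 was at 568 ± 91.3 FPKM in KYSE180 and 328 ± 11.4 FPKM in KYSE150 (SD, n = 3 each), without overlap. Its difference of 0.78 was not called in the fit of all 12 libraries, whose spread includes shCDCA7 replicate 2 (SE 0.71, limma adjusted p = 0.365), and was called when only the 6 native libraries were fitted (limma adjusted p = 0.00330). ACO1 was at 3.13 ± 1.02 FPKM in KYSE180 and 4.51 ± 0.161 FPKM in KYSE150 (SD, n = 3 each), a difference of -0.44 (SE 0.19, limma adjusted p = 0.0617) that was called in 5 of 13 alternatives, among them without KYSE180 control replicate 2 (limma adjusted p = 0.00951). TFRC was at 86.8 ± 28.2 FPKM in KYSE180 and 85.3 ± 4.80 FPKM in KYSE150 (SD, n = 3 each), with overlapping groups (-0.03, SE 0.23, limma adjusted p = 0.927). The other 4 members, NCOA4, SLC39A14, IREB2 and SLC11A2, had differences of -0.21 to -0.02 and were not called. Of the 9 members with reads in both lines, 1 was higher and 1 lower, against 33.4% and 24.6% of 17088 genes, a background that includes genes at 0 in 1 line. The groups did not overlap for 6 of the 9, against 71.3% of all genes. The median difference was -0.07 over the 9 members and 0.07 over all genes.

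Within each group the members spanned a wide range of levels per length. By group mean FTL was highest in all 4 groups, FTH1 next, and SLC40A1 lowest; FTH1 overlapped NCOA4 in shCDCA7 cells through replicate 2. In native cells the order went on with TFRC, NCOA4 and SLC39A14 in both lines, each separated from the next beyond the spread of the libraries. With overexpression TFRC and NCOA4 overlapped, at 32.3 ± 3.72 and 29.1 ± 1.78 FPKM (SD, n = 3 each). With shCDCA7 TFRC stood under NCOA4 and overlapped SLC39A14, at 20.4 ± 5.44 and 20.03 ± 0.573 FPKM (SD, n = 3 each). ACO1 stayed under IREB2 in every library.

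Among 7345 genes with a mean of at least 5 FPKM, those whose log2(FPKM + 1) pattern over the 12 libraries was most like that of TFRC were ZC3H18 (Pearson r = 0.980), HNRNPM (r = 0.963) and TMEM185B (r = 0.957). The 12 libraries share lines and groups, so these are descriptions. HNRNPM, a splicing factor, averaged 36.5 ± 3.30 FPKM with overexpression and 63.1 ± 14.8 FPKM in KYSE180 controls, and 30.5 ± 9.44 FPKM with shCDCA7 and 61.2 ± 1.37 FPKM in KYSE150 controls (SD, n = 3 each). ZC3H18, a zinc finger protein of nuclear RNA processing, had a smaller amplitude, at 10.5 ± 0.403 FPKM with overexpression and 12.3 ± 0.637 FPKM in KYSE180 controls, and 9.18 ± 0.392 FPKM with shCDCA7 and 12.2 ± 0.165 FPKM in KYSE150 controls (SD, n = 3 each). TMEM185B averaged 8.45 ± 1.61 FPKM with overexpression and 14.3 ± 0.985 FPKM in KYSE180 controls, and 7.19 ± 1.58 FPKM with shCDCA7 and 16.8 ± 0.442 FPKM in KYSE150 controls (SD, n = 3 each).

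The other genes of iron metabolism were taken from 5 lists with 93 genes, 91 of them in the table. The lists were written by function with earlier results of these data known, so their p-values are not those of lists chosen blind. In KYSE180, 1 of 76 tested list genes rose and 3 fell with overexpression, and in KYSE150, 10 of 72 rose and 3 fell with shCDCA7. The shares of 4.65% higher and 4.43% lower in KYSE180, and 10.0% and 9.86% in KYSE150, are the background. With total-read scaling the counts were 0 and 4 in KYSE180, where 504 of all 15944 genes were called higher and 1228 lower. In KYSE150 they were 4 and 13, where 776 of all 14342 genes were called higher and 3016 lower. Without shCDCA7 replicate 2, 21 of 72 list genes were called higher and 20 lower in KYSE150, in a fit that called 7948 genes in all. The background shares of the main fit do not apply to that count. The shares of that fit are not given here, so nothing is read from it.

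**Figure D4:**
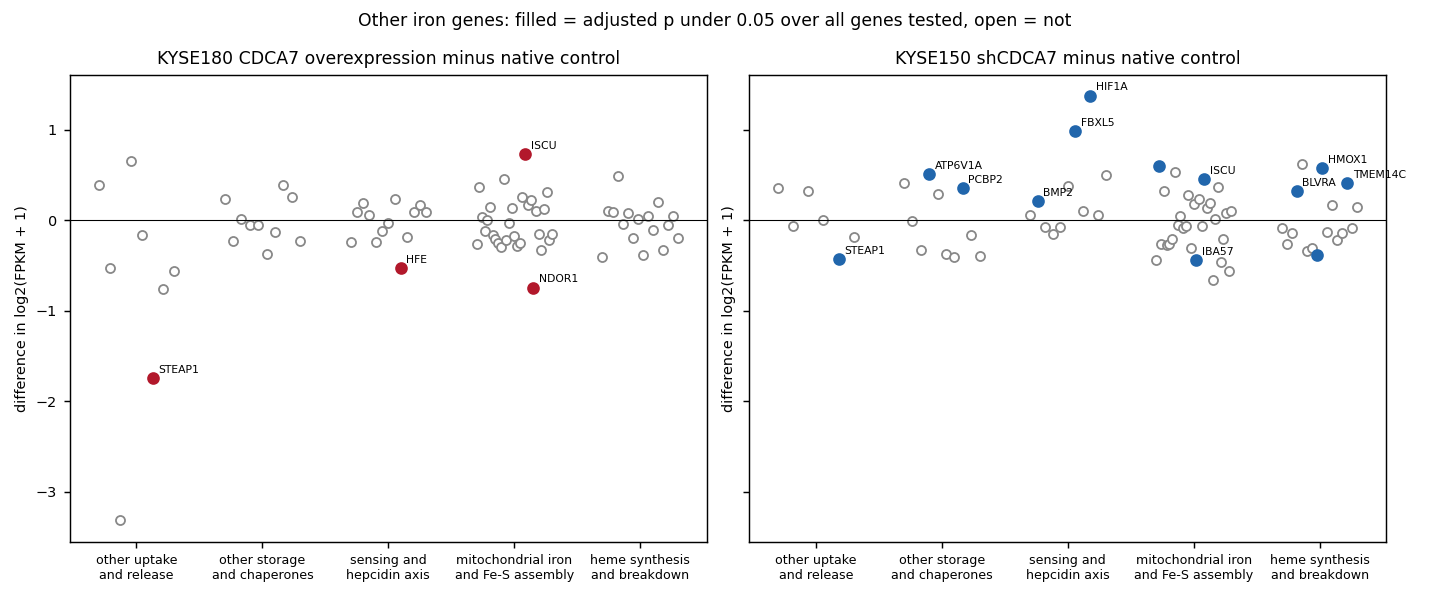
Difference in log2(FPKM + 1) of each tested gene of the 5 other iron lists, for overexpression minus native control in KYSE180 and shCDCA7 minus native control in KYSE150. Filled points passed limma's adjusted p under 0.05 over all genes tested, 4 in KYSE180 and 13 in KYSE150, and carry a name where the text describes the gene. STEAP1 is the lowest of the filled points in KYSE180 at -1.75.

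Among other genes of uptake and release, 0 of 8 tested rose and 1 fell in KYSE180, and 0 of 6 rose and 1 fell in KYSE150. The gene was STEAP1 in both lines, a metalloreductase related to STEAP3. It was at 4.91, 5.43 and 6.01 FPKM with overexpression, against 24.7, 11.8 and 29.7 FPKM in KYSE180 controls (-1.75, SE 0.30, limma adjusted p = 0.0227). In shCDCA7 cells it was at 5.18, 5.94 and 5.92 FPKM, against 7.62, 7.57 and 8.80 FPKM in KYSE150 controls (-0.43, SE 0.11, limma adjusted p = 0.0396). LCN2, which binds iron-loaded siderophores, was at 12.8, 11.03 and 14.0 FPKM with overexpression, against 241, 19.7 and 491 FPKM in KYSE180 controls, whose replicate 2 was also the lowest control for STEAP1; it did not pass the test (-3.32, SE 0.99, limma adjusted p = 0.0733). The median of this list was -0.55 in KYSE180, against 0.00 over all genes, and -0.03 in KYSE150.

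Of the other storage genes and iron chaperones, 0 of 10 tested passed in KYSE180 (median -0.05). In KYSE150, 2 of 10 rose and 0 fell (median -0.09). ATP6V1A, a subunit of the proton pump that acidifies endosomes and lysosomes, was at 23.4, 23.0 and 23.4 FPKM with shCDCA7, against 15.8, 16.4 and 15.9 FPKM in KYSE150 controls (0.51, SE 0.08, limma adjusted p = 0.00883). PCBP2, an RNA-binding protein that also carries iron to ferritin, was at 20.2, 20.5 and 19.1 FPKM with shCDCA7, against 14.8, 15.8 and 15.5 FPKM in controls (0.35, SE 0.08, limma adjusted p = 0.0303).

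Of the sensing and hepcidin genes, 0 of 13 tested rose and 1 fell in KYSE180 (median 0.05), and 3 of 11 rose and 0 fell in KYSE150 (median 0.10). FBXL5, the iron-binding ligase subunit that marks IREB2 protein for degradation, was at 15.9, 19.7 and 15.3 FPKM with shCDCA7, against 8.23, 8.01 and 7.86 FPKM in KYSE150 controls (0.98, SE 0.12, limma adjusted p = 0.00509). It was called in all 13 alternatives. HIF1A, the hypoxia-induced factor for which TFRC is a known target, was at 60.3, 116 and 62.2 FPKM with shCDCA7, against 29.1, 26.8 and 30.2 FPKM in controls (1.37, SE 0.25, limma adjusted p = 0.0152). BMP2, a ligand of the hepcidin pathway in liver, was under 1 FPKM in every KYSE150 library, at 0.263, 0.325 and 0.253 FPKM with shCDCA7, against 0.156, 0.10 and 0.0694 FPKM in controls (0.21, SE 0.05, limma adjusted p = 0.0376). HFE, a partner of the transferrin receptor, was at 4.46, 4.40 and 4.18 FPKM with overexpression, against 7.33, 6.298 and 6.54 FPKM in KYSE180 controls (-0.53, SE 0.12, limma adjusted p = 0.0382).

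Of the genes of mitochondrial iron and iron-sulfur cluster assembly, 1 of 29 tested rose and 1 fell in KYSE180 (median -0.12), and 2 of 29 rose and 1 fell in KYSE150 (median -0.06). ISCU, the scaffold on which clusters are built, rose in both lines. It was at 31.3, 20.3 and 24.2 FPKM with overexpression, against 12.5, 15.02 and 16.7 FPKM in KYSE180 controls (0.73, SE 0.18, limma adjusted p = 0.0447). With shCDCA7 it was at 27.9, 23.0 and 25.6 FPKM, against 17.7, 18.5 and 18.6 FPKM in KYSE150 controls (0.46, SE 0.10, limma adjusted p = 0.0241). Neither call held with total-read scaling (limma adjusted p = 0.0601 in KYSE180 and 0.338 in KYSE150). NDOR1, a reductase of cytosolic cluster assembly, was at 6.96, 7.06 and 7.77 FPKM with overexpression, against 13.4, 10.9 and 14.5 FPKM in KYSE180 controls (-0.75, SE 0.13, limma adjusted p = 0.0251). In KYSE150, IBA57, a late assembly factor, fell by 0.44 (SE 0.09, limma adjusted p = 0.0206).

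Of the genes of heme synthesis and breakdown, 0 of 16 passed in KYSE180 (median -0.01), and 3 of 16 rose and 1 fell in KYSE150 (median -0.11). HMOX1, the inducible heme oxygenase that frees iron from heme, was at 10.3, 8.96 and 9.67 FPKM with shCDCA7, against 5.83, 6.37 and 6.28 FPKM in KYSE150 controls (0.57, SE 0.10, limma adjusted p = 0.0128). TMEM14C, a mitochondrial porphyrin transporter, rose by 0.41 (SE 0.09, limma adjusted p = 0.0297), and BLVRA, a biliverdin reductase, by 0.32 (SE 0.09, limma adjusted p = 0.0475).

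All 4 KYSE180 list calls were lost when any 1 overexpression library or control replicate 1 was left out, and that of ISCU also without control replicate 2. With no filter on low values all 4 were lost as well. In KYSE150, 12 of the 13 list calls, all but FBXL5, were lost when any 1 control library was left out. The calls of PCBP2, BMP2, ISCU, TMEM14C, BLVRA and STEAP1 were lost without shCDCA7 replicate 1 or 3 as well. With total-read scaling 6 of the 10 rises in KYSE150 were not called, those of ATP6V1A, PCBP2, ISCU, HMOX1, TMEM14C and BLVRA.

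Between the native lines, 22 of the 74 tested list genes with reads in both lines were higher in KYSE180 and 21 lower, against 33.4% and 24.6% of all genes. Of the uptake and release genes, 4 of 7 were higher and 3 lower in KYSE180. LCN2 was at 241, 19.7 and 491 FPKM in native KYSE180 and 2.87, 3.90 and 2.63 FPKM in native KYSE150 (5.04, limma adjusted p = 0.000308). SLC22A17, a receptor for LCN2, was at 8.60, 7.61 and 17.0 FPKM in native KYSE180 and at 0 in native KYSE150, so it entered through KYSE180 alone and is not in these counts; its KYSE180 mean was at least 307-fold higher against 3 reads per library. FLVCR1, described as a heme exporter of the cell surface, was at 8.66, 5.72 and 5.75 FPKM in native KYSE180 and 14.5, 13.9 and 14.2 FPKM in native KYSE150 (-1.002, limma adjusted p = 0.000273). Of the heme genes, 5 of 16 were higher and 6 lower. FECH, which inserts iron into heme, was higher in KYSE180 (0.91, limma adjusted p = 3.39e-06), and ABCG2, a porphyrin and drug exporter, was lower, at 0.854, 0.566 and 0.101 FPKM in KYSE180 and 6.33, 6.95 and 7.33 FPKM in KYSE150 (-2.42, limma adjusted p = 8.40e-07). Of the storage and chaperone genes 1 of 10 was higher and 3 were lower, with PROM2, linked to ferritin export, lower by 2.83 (limma adjusted p = 5.54e-09). Of the sensing genes 5 of 12 were higher and 1 lower, leaving out BMP6, which was at 0 in KYSE150, with HIF1A higher by 1.23 (limma adjusted p = 0.000688). Of the mitochondrial and cluster genes 7 of 29 were higher and 8 lower, with CIAO1, a cytosolic cluster targeting factor, lower by 1.45 (limma adjusted p = 7.28e-07).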

How the data were processed

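Gene expression was measured by RNA sequencing of 12 libraries from the KYSE180 and KYSE150 lines, 3 per group, grouped by genotype in the labels. The deposited table holds 1 FPKM value per gene and library; the unit is not named in it and was read from the values, since value times gene length gives whole read numbers in 100% of values above 0 (tolerance 0.01 reads). Per the submitters' processing notes, HISAT2 2.0.5 and DESeq2 1.20.0 were used by the authors and mm10 is given as build; the identifiers are human, and all 10 members have the positions of GENCODE 29 on GRCh38. The counting tool and its strand setting are not given in the sources used here. The members and gene lists were chosen with earlier results of these data known.

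Genes entered the test with 15 or more reads in total and 10 or more reads, scaled to the median library, in 3 or more libraries. They were tested with limma 3.58.1 (R 4.3.3, intensity trend) on log2(FPKM + 1), two-sided, and called when the p adjusted by Benjamini and Hochberg over all genes tested was under 0.05. Each manipulation was fitted on its 6 libraries. The native lines, and the difference between the changes, were fitted on all 12 libraries with 4 groups. Fold changes on this scale understate low genes. Each library holds 16.3 M to 19.6 M reads, and no molecular identifiers separate copies, so read floors cover counting error only. The fit was also run on simulated reads with known changes. These had the same spread setting for all genes and no library standing apart, so they cannot show how the fit behaves with such a library. The alternatives were total-read, upper-quartile or within-comparison median-of-ratios scaling, no filter, an added 0.1, limma-voom on the recovered reads, a replicate block, other sets of libraries in the fit, and each library left out.

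Named genes are the 10 members, CDCA7, up to 3 called genes per list and direction, and the 3 genes most correlated with TFRC. LCN2 in KYSE180 and the library comparison of FTH1 were added after values were seen. Of the ratios within libraries, only that of TFRC to FTH1 was in the plan, and no ratio has a background share. Element and motif matches were found by string search with stem pairing. Some results of the other iron lists are not reported here.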

Additional observations from a re-analysis of the deposited data

Results flagged for a closer look

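The KYSE180 overexpression change minus the KYSE150 shCDCA7 change was tested in the fit of all 12 libraries. Of the 74 tested genes of the other iron lists with reads in both native lines, 0 were called higher and 6 lower. Over all 17088 genes, 2.87% were called higher and 2.7% lower. CDCA7 was called as well. For CDCA7 the difference was 2.79 (SE 0.20, limma adjusted p = 8.00e-05), with the gene higher in 3 of 3 overexpressing libraries and lower in 3 of 3 shCDCA7 libraries than in the controls. The difference was -1.56 (SE 0.32, limma adjusted p = 0.0212) for HIF1A, -0.96 (SE 0.19, limma adjusted p = 0.0184) for HMOX1 and -0.76 (SE 0.15, limma adjusted p = 0.0175) for FBXL5. For those 3 genes all 3 shCDCA7 libraries were above the KYSE150 controls, while the KYSE180 change did not pass its own test. That KYSE180 change was -0.18 for HIF1A and -0.39 for HMOX1. For FBXL5 it was 0.23, in the same direction as in KYSE150, with all 3 overexpressing libraries above the KYSE180 controls. The difference between the changes was -0.57 (SE 0.14, limma adjusted p = 0.0367) for ATP6V1A, with the KYSE180 change at -0.06 and the KYSE150 change at 0.51. For HFE it was -0.63 (SE 0.15, limma adjusted p = 0.0373), with changes of -0.53 and 0.10. For ISCA1 it was -0.49 (SE 0.12, limma adjusted p = 0.0438), a call that was not followed over the alternatives. The calls of the 5 list genes named before it rest on single libraries in part. All 5 were lost when any 1 KYSE150 control was left out, and that of HMOX1 also without overexpression replicate 3. Those of ATP6V1A and HFE were also lost without KYSE180 control replicate 1, any overexpression library, or shCDCA7 replicate 1 or 3. Other settings ended some calls too: that of ATP6V1A with total reads (limma adjusted p = 0.105), limma-voom (0.0698) and the replicate block (0.0518), that of HFE with total reads (0.0505) and the replicate block (0.0638), and that of HIF1A with no filter (0.0531).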

How the results depend on the processing

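With the replicate block, 603 genes were called in KYSE180, against 1447 without it, and 1001 in KYSE150, against 2854; the list counts were 2 and 2, against 4 and 13. Same-numbered libraries correlated at -0.08 to 0.07, so the numbers were not taken to pair them. With no filter, 3 genes and 0 list genes were called in KYSE180, where the TFRC difference was -1.35, 1554 and 6 in KYSE150, and 530 in the difference between changes, against 952; limma-voom gave 476 there. In that comparison 641 were higher and 388 lower with total reads, 377 and 609 with upper-quartile scaling, and 491 and 461 on the deposited scale. Fitting all 12 libraries gave 2893 genes and 10 list genes in KYSE180. Leaving out 1 library gave 1 to 2317 genes and 0 to 8 list genes in KYSE180, 410 to 7948 and 1 to 41 in KYSE150 (the most without shCDCA7 replicate 2), and 269 to 1632 in the difference. TFRC then ran from -1.62 to -1.13 in KYSE180. Signs turned as follows: with total reads SLC11A2 (-0.0146) and NCOA4 (-0.0401) in KYSE150, and with 1 library left out SLC40A1 in KYSE180 (-0.21 to 0.0287), FTH1 (-1.08 to 0.62) and NCOA4 (-0.0325 to 0.36) in KYSE150, and SLC11A2 (-0.13 to 0.0476), TFRC (-0.25 to 0.24) and NCOA4 (-0.0759 to 0.0401) between native lines. The cause was not tested. Median-of-ratios scaling for the native lines also restricted the fit to 6 libraries. Over 1137 single-gene values, 951 kept direction and call, 165 lost the call, 11 gained it and 10 turned sign. Members under 1 FPKM, here SLC40A1, rest on few reads.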
